A study of Homo sapiens with 4 samples.

Results

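A group of 9 genes, most of them tied to proteolysis outside the cell, was examined in 2 human glioblastoma cell lines treated with brusatol (Bru). The members were taken by gene name. They are the secreted inhibitors A2M, SERPINE2, TFPI2 and CST3, the plasminogen activators PLAU and PLAT, and the urokinase receptor PLAUR. The others are the intracellular inhibitor SERPINB6 and SERPINF1, a serpin without known protease inhibition. All 9 were found among the 58735 genes of the files. A gene was called measured when its mean FPKM (fragments scaled to exon length and to library size) over the 4 libraries was at least 1, and 8 of the 9 members and 12949 genes in all met this. SERPINF1 did not.

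RNA was sequenced from U251 and U87 cells, each as a Control culture and after 48 h of Bru at the IC50 of the line. Bru is a plant quassinoid that lowers the NRF2 protein, and U251 and U87 are established lines from human glioblastoma. Each condition has 1 library, so the differences have no replicate check and no p-value is given, and line and library cannot be told apart. Intervals are 95% exact intervals of the read counts, which cover counting error only.

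Proteases of the tissue surroundings are held in check by inhibitors of several families. Inhibitory serpins trap 1 protease molecule each in a covalent complex, and alpha-2-macroglobulin (A2M) closes like a cage around proteases of any class. Kunitz-type inhibitors such as TFPI2 block serine proteases, and cystatins block cysteine proteases such as cathepsins. In glioma the best known target of this control is plasminogen activation, in which urokinase (PLAU), held at the cell surface by its receptor PLAUR, or tissue-type activator (PLAT) turns plasminogen into plasmin.

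The libraries held between 17083896 and 21453561 reads on genes, recovered from FPKM and gene length, and a gene of 1 kilobase with 3 reads would have an FPKM of 0.143 to 0.172. Of the markers of glioblastoma lines, VIM and CD44 were high in all 4 libraries, whereas SOX2 stood at 129 FPKM in U251 Control and at 0 in U87 Control. In U251 the progenitor markers were also lower in Bru, SOX2 at 91.2 FPKM and NES at 50.6 against 125 in Control. In U87 NES was at 1.46 FPKM in Control and 0.569 in Bru, a log2 ratio of -1.23 beside -1.30 in U251. The part of these genes in the results was not tested. GFAP reached at most 2.42 FPKM, and OLIG2, S100B and CHI3L1 at most 1.05, so these astrocytic and glial markers were low or near absent. The 7 markers of leukocytes and endothelium summed to 0.684 to 1.18 FPKM per library, with none at 1 or above. In such bulk RNA, fewer cells that express a gene and less RNA of that gene per cell cannot be told apart.

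The RefSeq promoter of SERPINE2 is shown because SERPINE2 was the abundant inhibitor with the lowest ratio after A2M and because its letters carry an uncommon repeat. The sequence is the 250 bases before the start at chr2:224031479-224031728 (GRCh38.p14, minus strand, 5′ to 3′), which overlap no GENCODE 29 exon and lie inside the longer span of the gene. Capitals mark CCAAT boxes (CCAAT on either strand, read as ATTGG on the other) and the GC box (GGGCGG on either strand).
SERPINE2: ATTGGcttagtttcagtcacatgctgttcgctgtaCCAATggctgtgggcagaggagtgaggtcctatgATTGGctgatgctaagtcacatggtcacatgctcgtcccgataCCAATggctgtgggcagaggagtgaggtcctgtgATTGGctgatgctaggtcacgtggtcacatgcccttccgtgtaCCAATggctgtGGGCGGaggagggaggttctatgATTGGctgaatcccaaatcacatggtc
The window held 7 CCAAT boxes, beginning at -250, -215, -181, -138, -104, -61 and -27 from the start. The boxes at -215, -138 and -61, and likewise those at -181, -104 and -27, lay 77 bases apart, and 69 of the 77 bases from -215 recurred in the next 77. The copy nearest to the start was less alike, with 41 of its 61 bases in the window the same as in the copy before it, without gaps. Of 35116 promoters of the same length in the RefSeq table, 32.0% held at least 1 CCAAT box and 7 (0.0199%), SERPINE2 among them, held 7 or more. A GC box began at -50, and 42.6% of promoters held at least 1. The CCAAT box was chosen for the search after the sequence had been seen.

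Windows of 5 other members were matched in the same table. All 250 bases of those of SERPINB6, PLAU, PLAUR and TFPI2, and 71 of those of CST3, lie in GENCODE exons of these or other genes, so they are transcribed sequence in that annotation. PLAU held 1 CCAAT box, at -182, and SERPINB6, PLAUR, TFPI2 and CST3 held none. GC boxes numbered 3 in SERPINB6, 2 in TFPI2 and 1 in CST3. The AP-1 element (TGAGTCA or TGACTCA), present in 4.20% of promoters, was found in PLAUR alone, at -186. These matches describe letters in the window and were not tied to binding.

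A2M, the broad-spectrum cage inhibitor, had by far the lowest ratio of the members. The gene (ENSG00000175899) lies at chr12:9067664-9116229 on the minus strand, with 38 merged exons of 6384 bases in all. In U251 its level was 9.67 FPKM (1295 reads) in Control and 0.237 FPKM (28 reads) in Bru. No read was found in either U87 library, where the floor of 3 reads stands for 0.0260 FPKM in Control and 0.0270 in Bru. Thus A2M was present in the U251 libraries only, and the treated one kept 2.45% of the Control level (1.62 to 3.55%). The log2 ratio on FPKM + 0.1 was -4.86, and without the added 0.1 its interval ran from -5.95 to -4.81. Among the 12949 measured genes this ratio was number 11 from the lowest. A2M passed the level filter through U251 Control alone, which favours a low ratio in U251, so this place is a description. Against this floor in U87 Control, A2M was at least 372-fold higher in U251 Control. Since A2M passed the level filter through U251 alone, its U87 ratio of 0 carries no information. The antisense gene A2M-AS1 shares 561 bases (8.79%) of its exons and was assigned 2 reads in U251 Control and 0 in the others.

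SERPINE2 (protease nexin-1, ENSG00000135919, chr2:223975112-224039319, minus strand) inhibits thrombin, urokinase and plasmin at the cell surface. In U251 its level was 28.8 FPKM (5370 reads) in Control and 5.25 (865 reads) in Bru, and in U87 it was 15.7 (2515 reads) in Control and 11.96 (1851 reads) in Bru. The treated library was lower in both lines, far more so in U251. The log2 ratio was -2.43 in U251 (interval -2.56 to -2.35, 18.2% of Control) and -0.39 in U87 (-0.48 to -0.30, 76.4% of Control). The order of the lines turned over, in that U251 was the higher line in Control, and in Bru U87 was higher by 1.17 on the log2 scale (1.07 to 1.31).

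Neither of the other member serpins differed by 2-fold. SERPINB6 (ENSG00000124570, chr6:2948159-2972165, minus strand), an intracellular inhibitor of trypsin-like proteases and cathepsin G, was at 7.62 and 5.60 FPKM in U251 Control and Bru and at 6.54 and 5.72 in U87. Its log2 ratio was -0.44 in U251 (-0.54 to -0.34) and -0.19 in U87 (-0.30 to -0.09). SERPINF1 (pigment epithelium-derived factor, ENSG00000132386, chr17:1761959-1777574, plus strand) is a secreted serpin without known protease inhibition that acts against vessel growth. With 38 to 66 reads per library it stood at 0.917 and 0.668 FPKM in U251 and at 1.19 and 1.01 in U87. Both its intervals, -1.08 to 0.16 and -0.78 to 0.31, include 0, so no difference was detectable at this depth.

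TFPI2, a secreted Kunitz-type inhibitor of plasmin and trypsin, was the member with the widest gap between the lines. The gene (ENSG00000105825) lies at chr7:93885396-93890991 on the minus strand. In U251 it had 11 reads (0.196 FPKM) in Control and 8 reads (0.161 FPKM) in Bru, against 15256 reads (315 FPKM) and 13480 reads (289 FPKM) in U87. By level TFPI2 was number 65 of 19951 protein-coding genes in U87 Control and number 12288 in U251 Control. The log2 ratio of U87 Control to U251 Control was 10.06. Bru went with a small difference only, -0.12 in U87 (-0.16 to -0.09, 91.7% of Control), and the U251 ratio of -0.18 had an interval from -1.80 to 1.17.

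CST3 (cystatin C, ENSG00000101439, chr20:23626706-23638473, minus strand), the main secreted inhibitor of cysteine cathepsins, had the U251 ratio nearest to 0 of the members. It measured 19.9 and 18.6 FPKM in U251 Control and Bru, and 27.5 and 24.8 in U87 Control and Bru. Its log2 ratio of -0.09 in U251 had an interval from -0.20 to 0.01, and that of -0.14 in U87 one from -0.24 to -0.05. When reads were scaled by their total instead, the U251 ratio was -0.01.

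Urokinase and its receptor were lower after Bru in both lines. Urokinase was higher in U251 than in U87 in Control and lower in Bru. PLAU (urokinase, ENSG00000122861, chr10:73909177-73917497, plus strand) was at 126 FPKM (7803 reads) in Control and 34.4 (1881 reads) in Bru of U251, and at 64.1 (3419 reads) in Control and 42.0 (2155 reads) in Bru of U87. The log2 ratio was -1.87 in U251 (-1.95 to -1.80, 27.3% of Control) and -0.61 in U87 (-0.69 to -0.53, 65.4% of Control). U87 was thus below U251 by a log2 ratio of -0.97 in Control, and above it by 0.29 (0.20 to 0.38) in Bru. C10orf55 on the opposite strand shares 916 bases, or 31.1%, of the PLAU exons, and no source used here states whether reads were counted by strand. It was assigned 67 and 12 reads in Control and Bru of U251 and 24 and 7 in those of U87, few beside the reads of PLAU. How reads in the shared bases were assigned is not known, so these counts do not bound the effect of the overlap on the PLAU level.

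PLAUR (ENSG00000011422, chr19:43646095-43670547, minus strand), the membrane-anchored receptor that holds urokinase at the cell surface, was at 24.99 and 13.7 FPKM in U251 Control and Bru, and at 50.6 and 37.6 in U87. The log2 ratio was -0.86 in U251 (-0.97 to -0.76) and -0.43 in U87 (-0.50 to -0.36), so neither reached 2-fold. Unlike PLAU, the receptor was higher in U87 from the start, by 1.01 on the log2 scale between the Control libraries.

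PLAT (tissue-type plasminogen activator, ENSG00000104368, chr8:42175233-42207724, minus strand) works mainly on fibrin and in brain tissue. Its level was 22.5 FPKM (3130 reads) and 10.48 (1286 reads) in Control and Bru of U251, and 1.73 (207 reads) and 1.13 (130 reads) in the U87 libraries. The gene was thus 13.0-fold lower in U87 Control than in U251 Control. Its log2 ratio for Bru was -1.10 in U251 (-1.20 to -1.01) and -0.58 in U87 (-0.94 to -0.29). In U251 this value lay close to the 2-fold mark, with a ratio of -1.01 when reads were scaled by their total.

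Counted over the members, 4 of the 8 measured were lower by more than 2-fold in U251 Bru and none was higher, where 5.44% of all 12949 measured genes were lower and 3.36% higher by that much. In U87 Bru 0 of the 8 were past 2-fold either way, where 1.41% of measured genes were lower and 1.92% higher. The median log2 ratio of the 8 was -0.98 in U251, beside -0.03 for all measured genes, and -0.29 in U87, beside -0.04. All 8 were below 0 in U251, as were 52.1% of measured genes. In U87, where A2M had no read, the other 7 were below 0, as were 56.7% of measured genes, and their median without A2M was -0.39. Between the Control libraries 2 members, A2M and PLAT, were lower by more than 2-fold in U87, where 16.0% of measured genes were, and TFPI2 and PLAUR were higher, where 14.5% were. A2M passed the level filter through U251 Control alone and TFPI2 through U87 alone, so these counts and medians are a description.

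The balance of higher and lower genes in U251 moved with the scaling and with the genes tested. Of the genes past 2-fold, 705 were lower and 435 higher (61.8% lower), and rescaling to a median log2 ratio of 0 gave 660 and 459 (59.0%). Reads scaled by their total gave 575 and 556 (50.8%). TPM (FPKM rescaled to the same total in each library), whose larger values let 17803 genes past the same minimum, gave 1470 and 1380 (51.6%), and FPKM with no level filter gave 2539 and 2424 (51.2%). In each case the same number of members, 4, was lower by more than 2-fold.

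For 5 members with reads in all libraries, SERPINE2, PLAU, PLAT, PLAUR and SERPINB6, the U251 ratio was the lower one and its counting interval lay apart from that of U87. The U251 log2 ratio minus the U87 one was -2.05 for SERPINE2, -1.26 for PLAU, -0.52 for PLAT, -0.43 for PLAUR and -0.25 for SERPINB6. For SERPINF1, TFPI2 and CST3 the intervals overlapped. The share of all measured genes with intervals apart was not computed, so this count is a description and no trait of the members. Over all measured genes the U251 ratios were spread wider, with quartiles of -0.38 and 0.30 against -0.20 and 0.12 in U87. With 1 library each, the difference between the lines was not tested.

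**Figure D1:**
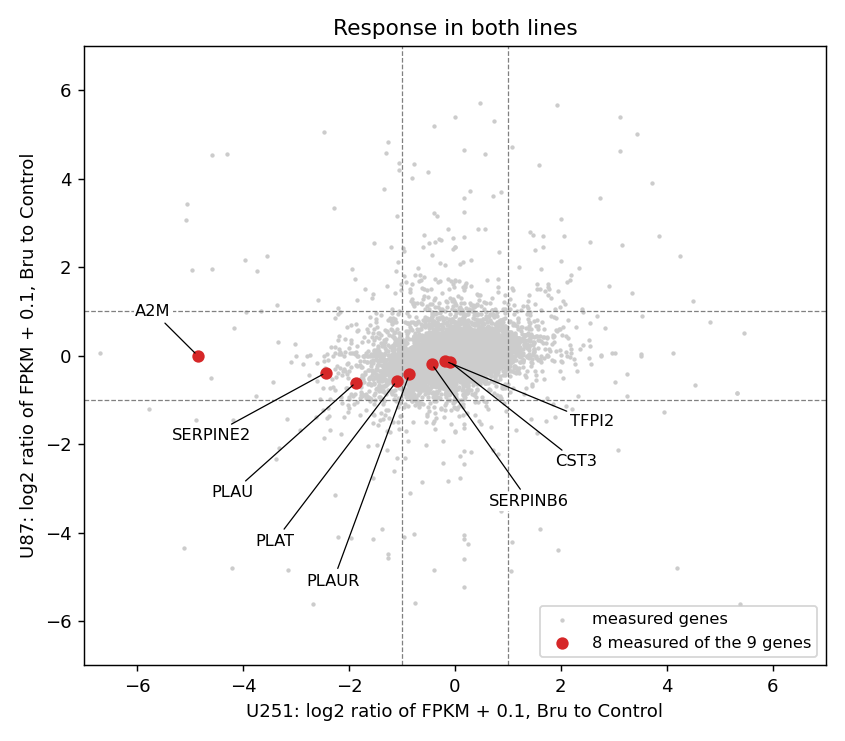
Each gene by its log2 ratio (Bru over Control, with 0.1 added to FPKM) in U251 (horizontal axis) and in U87 (vertical axis) for the 12949 measured genes in grey, with the 8 measured members in red and dashed lines at 2-fold. SERPINE2, PLAU and PLAT lie left of -1 on the U251 axis and between -1 and 0 on the U87 axis, and A2M lies at 0 on the latter because it had no reads there.

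The proportions between proteases and inhibitors also differed. The FPKM of PLAU relative to SERPINE2 was 4.38 in U251 Control and 6.55 in Bru, and it was 4.10 and 3.51 in U87. The FPKM of urokinase relative to its receptor was 5.05 and 2.51 in Control and Bru of U251 and 1.27 and 1.12 in those of U87. Urokinase exceeded PLAT by a factor of 5.59 and 3.28 in the U251 libraries and 37.1 and 37.2 in the U87 libraries.

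Counts over lists of related genes were read beside the 52.1% of measured genes below 0 in U251 and 56.7% in U87, and beside the 5.44 and 1.41% lower by more than 2-fold. The wider plasminogen system, a list of 19 genes of which 13 were measured, was lower in 9 and higher in 4 in U251, with 4 lower by more than 2-fold and a median log2 ratio of -0.27. In U87 8 were lower and 5 higher, 0 passed 2-fold and the median was -0.08. Without the members the medians were -0.18 and 0.01, close to those of all genes in U87. The 1 other gene past 2-fold was LRP1, the endocytic receptor that clears A2M, urokinase and serpin complexes. It stood at 2.05 FPKM (898 reads) in U251 Control and 0.722 (279 reads) in Bru, a log2 ratio of -1.39, and at 47.7 and 40.9 FPKM in U87, a ratio of -0.22. SERPINI1 (neuroserpin, an inhibitor of PLAT) gave -0.68 in U251 and -0.07 in U87, and PLGRKT, a plasminogen receptor of the plasma membrane, gave 0.40 and 0.23.

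Among the A2M family and its receptor, 5 of 9 genes were measured, and 4 were lower and 1 higher in U251, with a median of -0.73. In U87 the median was -0.08 with A2M at 0 reads counted as a ratio of 0. Without A2M the medians were -0.68 in U251 and -0.15 in U87. LRPAP1, the chaperone of LRP1, had log2 ratios of -0.73 and -0.47. C3, the complement component related to A2M, was the exception with 9 reads in U251 Control and 19 in Bru, and 9.77 and 11.3 FPKM in U87.

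The 4 measured Kunitz-type inhibitors of 13 were lower in both lines, with medians of -0.92 in U251 and -0.35 in U87. TFPI, which blocks the tissue factor pathway of clotting, was past 2-fold in U251 at -1.09 and gave -0.56 in U87. APP and APLP2, membrane proteins with a Kunitz domain in some isoforms, gave -0.86 and -0.97 in U251 and -0.26 and -0.44 in U87. TFPI2, with its 11 and 8 reads in U251, was the member of this list nearest to 0 in both lines.

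Cysteine cathepsins are the class of protease that cystatins block. Of 12 cysteine cathepsins and legumain 10 were measured, 8 of them lower and 2 higher, with a median of -0.65, and in U87 7 were lower and 3 higher, with a median of -0.16. CTSF was past 2-fold in U251, at -1.17 beside -0.43 in U87. CTSO (-0.83 and -0.92) and CTSZ (-0.74 and -0.39) followed. CTSS was past 2-fold in the other direction in U251 at 1.01, on 4 and 15 reads. Of 17 cystatins 2 were measured, CST3 and CSTB. CSTB (cystatin B, an intracellular inhibitor) was higher in Bru in both lines, at 18.99 and 25.96 FPKM in U251 (0.45 on the log2 scale) and 132.0 and 153.6 in U87 (0.22).

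Extracellular serine proteases, PLAU and PLAT among them, numbered 30, with 13 measured. In U251 10 were lower, 3 of these by more than 2-fold, and 3 higher, with a median of -0.67. Without the members PLAU and PLAT 11 were measured, 1 of them lower by more than 2-fold in U251. Their medians were -0.67 in U251 and -0.43 in U87. Among those counted as higher, DPP4 had 10 and 9 reads in U251 Control and Bru, and C1S had 6 and 9. Among those counted as lower, C1R had 15 and 3 reads and FAP had 3 and 1. DPP4, C1S, C1R and FAP passed the level filter through U87 alone, so their part in the U251 count carries little information. In U87 12 were lower and 1 higher, with a median of -0.44, although 1 gene alone passed 2-fold, PRSS35, on 5 reads against 0. HTRA1, a secreted protease that cleaves matrix proteins, had ratios of much the same size in both lines, -0.85 in U251 and -0.95 in U87. PRSS12 (neurotrypsin, which cleaves agrin) was at 14.6 FPKM in U251 Control and 3.47 in Bru, a log2 ratio of -2.04, and gave -0.42 in U87.

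The receptor through which thrombin signals, F2R (PAR-1), was among the proteolysis genes with the lowest ratios. It stood at 119.9 FPKM (10223 reads) in U251 Control and 29.05 (2189 reads) in Bru, and at 23.2 and 14.0 FPKM in U87. Its log2 ratios were -2.04 and -0.72. Tissue factor (F3), which starts clotting, went the other way, with 0.11 in U251 and 0.81 in U87, the latter on 82 and 142 reads. F2RL1 (PAR-2) had 4 and 0 reads in U251 and gave -0.74 in U87.

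SERPINE2 was the 1 measured serpin past 2-fold. Of 34 serpin genes 9 were measured, with 6 lower and 3 higher in U251 (median -0.44) and 8 lower and 1 higher in U87 (median -0.15). Without the members the medians were -0.27 in U251 and -0.11 in U87. SERPINH1 (HSP47, a collagen chaperone and no protease inhibitor) gave -0.85 and -0.66. SERPINB7 had 6 and 2 reads in U251 and gave -0.26 in U87, and SERPINB1, an inhibitor of neutrophil proteases, had 0 and 4 reads in U251 and gave -0.08 in U87. SERPINB2, an inhibitor of urokinase, had 1 read in each U251 library and stood at 33.8 and 39.3 FPKM in U87 Control and Bru. SERPINB7, SERPINB1 and SERPINB2 passed the level filter through U87 alone, so their part in the U251 count carries little information.

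The genes whose pattern over the 4 libraries was nearest to that of A2M, by the Euclidean distance of centred log2(FPKM + 0.1) among 10850 protein-coding genes, were COL11A1 (distance 1.26), CGNL1 (1.79), PTPRZ1 (1.91), ADRA1D (1.92) and TNFSF18 (1.98). The median distance was 5.40, and the 5 lie below it because they were picked as the nearest. Like A2M, all 5 passed the level filter through U251 alone, where they are high. COL11A1, a fibrillar collagen chain, went from 6.83 FPKM in U251 Control to 0.712 in Bru, with 4 and 2 reads in U87. PTPRZ1, a receptor phosphatase of glial cells, went from 4.42 to 0.903 FPKM in U251, with 0 and 1 read in U87. With 1 added to FPKM in place of 0.1, COL11A1 alone stayed among the nearest 5, so the place of the other 4 depended on that constant.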

How the data were processed

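RNA of U251 and U87 cells, Control and Bru, was sequenced as paired-end NEB Next Ultra libraries, 1 per condition. The authors deposited FPKM per gene and the gene lengths behind them. The submitters' processing notes name HISAT2 2.0.5, StringTie 1.3.3b, featureCounts 1.5.0-p3, DESeq2 1.16.1 and the build hg18, with no role given. The coordinates of all 58735 genes in the files were those of GENCODE 29 (GRCh38), and coordinates are given on that build.

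FPKM multiplied by gene length gave a whole multiple of 1 step in 100% of values (tolerance 0.01 reads), and this step gave the reads per gene. DESeq2 and other count tests were not run on these, as there is no replicate. Log2 ratios used FPKM + 0.1, the level filter was a mean of 1 FPKM over all libraries, and 2-fold was the mark. Ratio intervals are 95% Clopper-Pearson intervals of the reads, without the added 0.1, and level intervals are exact Poisson ones. The floor was 3 reads. The steps were tested on simulated data. Python 3.11.15, numpy 2.4.6, pandas 2.3.3, scipy 1.17.1 and matplotlib 3.10.9 were used.

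The members and gene lists were chosen with earlier results of these data known. Genes named beside the members were, per list with 3 or more measured genes, the 3 with the largest mean absolute log2 ratio and any past 2-fold, and the 5 nearest to A2M. SERPINB2, CSTB and the partner genes on the opposite strand were added after values were seen. Alternatives were pseudocounts of 1 and 0.01, rescaling to a median log2 ratio of 0, TPM, reads scaled by their total, no level filter and a minimum mean FPKM of 5. Promoters are from RefSeq (GRCh38.p14), which matched 6 of the 9 members.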

Additional observations from a re-analysis of the deposited data

Results flagged for a closer look

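In 3 of the genes named by the rule given above, the log2 ratio of Bru to Control had opposite signs in U251 and U87. The difference was not tested, with 1 library per condition. Outside that rule SOX2, DPP4 and C1S also had opposite signs. Reads were few in 1 line for each, with 0 and 2 for SOX2 in U87. In U251 DPP4 had 10 and 9 and C1S had 6 and 9. CTSS (cathepsin S) had 1.01 in U251, on 4 and 15 reads (95% counting interval 0.44 to 4.13), and -0.0886 in U87, on 877 and 794 reads (-0.23 to 0.05). PTPRZ1 had -2.17 in U251, on 919 and 166 reads (-2.54 to -2.05), and 0.0812 in U87, on 0 and 1 read. SERPINB1 had 0.763 in U251, on 0 and 4 reads, and -0.0795 in U87, on 619 and 564 reads (-0.25 to 0.09). The intervals include 0 for CTSS and PTPRZ1 in U87 and for SERPINB1 in both lines, so opposite changes were not shown in any of the 3.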

How the results depend on the processing

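No paired analysis was possible because each condition has 1 library. The count of members lower by more than 2-fold in U251 was 4 under each alternative except a minimum mean FPKM of 5, which drops A2M and leaves 3, and in U87 it was 0 throughout. Of 116 alternative ratios of single members 116 had the sign of the reported value. A change of pseudocount or of level filter cannot alter the sign of a member's ratio. Only rescaling, TPM and reads scaled by their total could, so the 116 are no measure of robustness. Of the same ratios 5 moved by more than counting error. These were A2M (-3.11) and SERPINE2 (-2.25) in U251 with a pseudocount of 1, PLAU (-1.78) in U251 with reads scaled by their total, and TFPI2 in U87 (-0.09 and -0.08 under rescaling). Of 42 list medians 34 had the reported sign, and 12 moved by more than 0.1 on the log2 scale.

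The counts over all genes depended on the level filter and the pseudocount. In U251 the genes lower and higher by more than 2-fold numbered 419 and 197 with a pseudocount of 1, 1470 and 1380 with TPM, 2539 and 2424 with no filter, and 323 and 150 with a minimum of 5. In U87 they numbered 77 and 113, 729 and 1022, 1804 and 2531, and 45 and 38 in the same order. TPM values are larger than FPKM, so more low genes pass the same minimum. Depth limits SERPINF1 in both lines and TFPI2 and C3 in U251. It also limits DPP4, C1S, C1R, FAP, CTSS, F2RL1, SERPINB1, SERPINB2 and SERPINB7 in U251, which enter the list counts there. With no replicate the spread between cultures is unknown.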
